A study of Mus musculus with 4 samples.

Results

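Cytosolic ribosomal proteins are the protein part of the ribosomes that translate nuclear-encoded mRNAs. Their genes were taken from the count table by name, as every Rpl or Rps symbol with a number and at most a short suffix, plus Rplp0, Rplp1, Rplp2 and Rpsa. This gave 82 genes of 18751 distinct names: 46 of the large (60S) subunit, 31 of the small (40S) subunit and 5 lineage-restricted or duplicated paralogs. The name rule leaves out, among others, Fau, Gnb2l1 (RACK1) and Rpl36al, which also encode ribosomal proteins, and all mitochondrial ribosomal proteins. Of the 82 genes, 72 had enough counts to be tested between genotypes and 10 fell below the filter on low counts.

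RNA was sequenced from PMN-MDSCs, neutrophil-like suppressor cells of tumour-bearing hosts, of CD300ld KO mice (2 libraries) and of wild-type (WT) mice (2 libraries). CD300ld is a surface receptor that myeloid cells carry. All mice, of both genotypes, were C57BL/6 of 8 weeks and bore tumours of the mouse melanoma line B16-F10 under the skin. Cells were enriched on day 15 by magnetic separation, with a kit for neutrophils. The labels call the cells neutrophils, and give neither the organ nor the part of the Cd300ld gene that was removed. The labels do not say whether each library is a separate animal. All p-values therefore rest on the spread among these 4 libraries, and that spread may be technical.

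The deposited counts summed to 830931 and 835510 in the KO libraries and to 674599 and 920839 in the WT libraries. Cd300ld itself had 2 and 3 counts in the KO libraries, against 0 and 11 counts in the WT libraries, too few to check the genotype labels. The preparations were mixed. Markers of erythroid cells took 20.9% and 19.7% of counts in the KO libraries and 15.3% and 16.4% in the WT libraries, and 9 of 15 passed the test, all higher in KO. Granulocyte markers took 0.534% and 0.499% in the KO libraries and 3.36% and 3.88% in the WT libraries, and 14 of 14 passed the test, all lower in KO. Of all 7685 genes tested, 2.71% passed as higher in KO and 3.27% as lower. No marker of either list was at 0 in any library. In such bulk samples, fewer cells of a type and less RNA per cell cannot be told apart.

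A mouse ribosome carries a single copy of nearly every ribosomal protein, and the small subunit decodes mRNA while the large subunit joins amino acids. The mRNAs of these proteins begin with a 5′ terminal oligopyrimidine (TOP) tract, a C followed by a run of C and T bases, through which mTOR and the RNA-binding protein LARP1 set their translation. Most of these genes also have many processed pseudogenes and duplicates, so short reads can fit more than 1 place in the genome.

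The annotated starts show the tract. RefSeq's promoter table (GRCm38.p6) held a start for 61 of the 82 genes. A TOP-like start, here a C at the first transcribed base followed by at least 4 bases that are each C or T, read on the gene's own strand, was present in 13 of these 61 (21.3%), against 813 of all 27025 genes in the table (3.01%). An annotated start can lie some bases away from the start the cells use, so a gene without the match may still carry a tract. The lines that follow give 30 bases before and 20 bases from the start of Rps18, which fell in KO, of Rpl15, which has the longest run of the 13, of Rps6, and of the pair Rps27 and Rps27l, with the unbroken run of C and T from the start in capitals. Rps18 is at chr17:33955646-33955695 (minus strand), Rpl15 at chr14:18270967-18271016 (minus), Rps6 at chr4:86857348-86857397 (minus), Rps27 at chr3:90213629-90213678 (minus) and Rps27l at chr9:66946056-66946105 (plus).
Rps18: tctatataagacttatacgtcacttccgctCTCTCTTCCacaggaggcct
Rpl15: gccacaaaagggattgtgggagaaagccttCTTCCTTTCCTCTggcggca
Rps6: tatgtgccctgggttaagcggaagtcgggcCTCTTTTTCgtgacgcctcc
Rps27: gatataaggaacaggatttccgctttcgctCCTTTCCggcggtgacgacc
Rps27l: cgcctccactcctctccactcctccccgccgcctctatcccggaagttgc
The run is 9 bases in Rps18, 13 in Rpl15, 9 in Rps6 and 7 in Rps27, and the annotated start of Rps27l begins with none.

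The second feature is the shared sequence. In GENCODE M21 transcripts, the median ribosomal protein gene had 39.4% of its 50-base windows in no other annotated gene, and 2 genes shared no window at all. With windows of 36 bases the median was 37.5% and with windows of 75 bases 49.7%. Neither the read length nor the treatment of reads with several matches is given in the labels, so the split of reads between a gene and its copies is uncertain for most members. Stretches of 60 bases are shown for 3 genes whose own counts lay lower in KO while those of their copies lay higher, each followed by counted copies that resemble it closely, with bases that differ from the parent gene in capitals.
Rpl21, coding bases 319 to 378: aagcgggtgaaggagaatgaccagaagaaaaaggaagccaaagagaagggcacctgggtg
Rpl21-ps15, chromosome X: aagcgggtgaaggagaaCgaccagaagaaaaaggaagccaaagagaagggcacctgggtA
BC004004, chromosome 17: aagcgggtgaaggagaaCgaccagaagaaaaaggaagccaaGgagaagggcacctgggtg
Rps18, coding bases 1 to 60: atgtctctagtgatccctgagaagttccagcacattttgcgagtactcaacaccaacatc
Gm11361, chromosome 13: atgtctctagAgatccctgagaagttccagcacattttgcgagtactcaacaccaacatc
Rpl29, coding bases 13 to 72: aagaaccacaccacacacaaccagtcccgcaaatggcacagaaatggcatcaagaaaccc
Gm13841, chromosome 5: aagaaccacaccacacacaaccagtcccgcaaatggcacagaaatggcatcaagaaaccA
In these stretches the copies differ from their parent by 1 or 2 bases. The stretches were picked where the copies resemble the parent closely, so these numbers do not describe the genes over their whole length.

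As a group, the ribosomal protein genes were little different between genotypes. None of the 72 tested genes rose in KO and 2 fell, Rpl21 and Rps18 (edgeR's quasi-likelihood test, Benjamini-Hochberg adjusted p under 0.05). That is 2.78% of them, against 5.97% of all 7685 genes tested, of which 2.71% were higher and 3.27% lower. DESeq2 called the same 2 genes and none higher, against 3.89% of all genes, and limma-voom called Rps19 higher as well, against 5.83% of all genes. At an adjusted p under 0.1, edgeR called 3 members, Rps19 being the third, against 9.11% of all genes. At an unadjusted p under 0.05, 6 of the 72 were higher and 4 lower, whereas 9.69% of all genes were higher and 9.19% lower, which are the shares to read the later unadjusted counts against. The absolute log2 fold change was under 0.5 for 86.1% of the tested members and for 63.1% of all tested genes. Among genes with a mean above 100 CPM (counts per 1000000 counts, TMM-scaled), these shares were 91.3% of members and 69.3% of all genes.

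The small differences lay more often above 0 than below it, though the excess over other genes depended on their level. The median log2 fold change, KO over WT, was 0.12 (quartiles -0.07 and 0.31), against 0.00 over all genes tested (quartiles -0.36 and 0.37). It was above 0 for 47 of 72 members (65.3%), against 50.3% of all genes. Both KO libraries lay above both WT libraries for 29 members (40.3%, against 24.5% of all genes), and below them for 12 members (16.7%, against 23.6%). Among genes with a mean above 100 CPM, the median was 0.04 over 46 members and 0.05 over all genes. Both KO libraries were above both WT libraries for 37.0% of these members and 36.6% of these genes, and below them for 15.2% and 28.0%. With a filter of 50 CPM in 2 libraries the median was 0.022, and among members with at least 50% of their 50-base windows in no other gene it was 0.036.

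**Figure D1:**
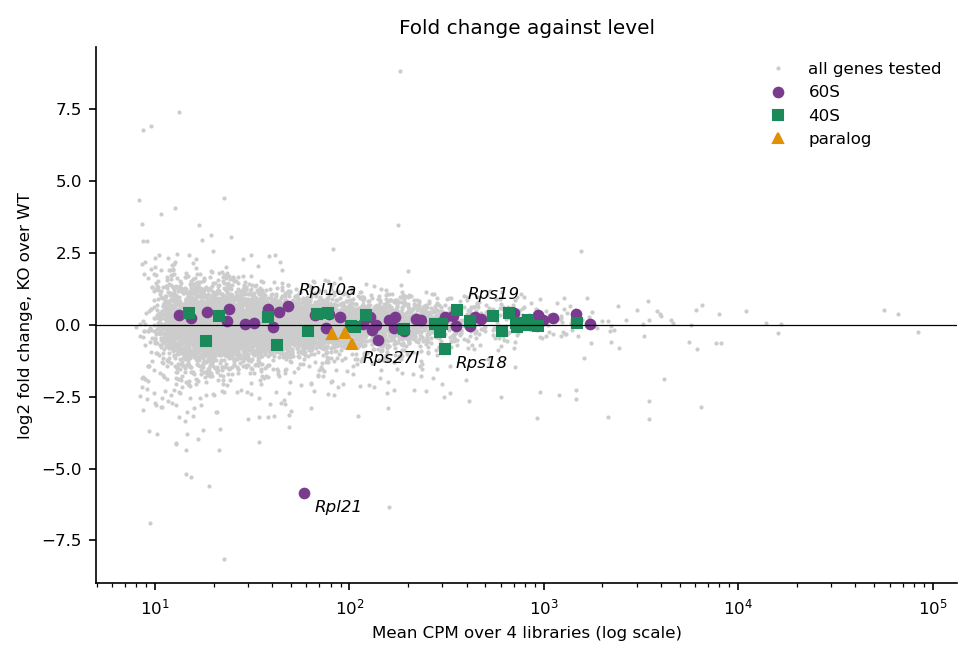
log2 fold change, KO over WT, against mean CPM over the 4 libraries (log scale) for all 7685 tested genes (grey) and the tested ribosomal protein genes by subunit. Nearly all ribosomal protein genes lie close to 0, and Rpl21 stands alone at -5.84.

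Summed over the group, the share of counts was slightly higher in KO. Ribosomal protein genes took 2.39% and 2.50% of all counts in the KO libraries and 2.19% and 2.36% in the WT libraries. The means were 2.45% ± 0.0756 in KO and 2.28% ± 0.118 in WT (SD, n = 2 each). The KO libraries were both higher, and the exact two-sided permutation test gave p = 0.333, the smallest that 2 against 2 libraries allow. With haemoglobin and mitochondrial genes left out of the totals, the shares were 3.34% and 3.41% in the KO libraries and 3.03% and 3.19% in the WT libraries. Erythroid markers were also higher in both KO libraries. B cell markers took 0.559% and 0.638% of counts in the KO libraries and 0.427% and 0.508% in the WT libraries. Cycling-cell genes took 0.447% and 0.460% in the KO libraries and 0.382% and 0.366% in the WT libraries. B cell markers kept the library order of the ribosomal share within each genotype, and so did markers of T and NK cells. Markers of monocytes and macrophages did too, though they were lower in KO. They took 0.0568% and 0.0800% of counts in the KO libraries and 0.135% and 0.145% in the WT libraries. The order therefore does not single out a cell type. The part of these lists in the ribosomal share was not tested.

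**Figure D2:**
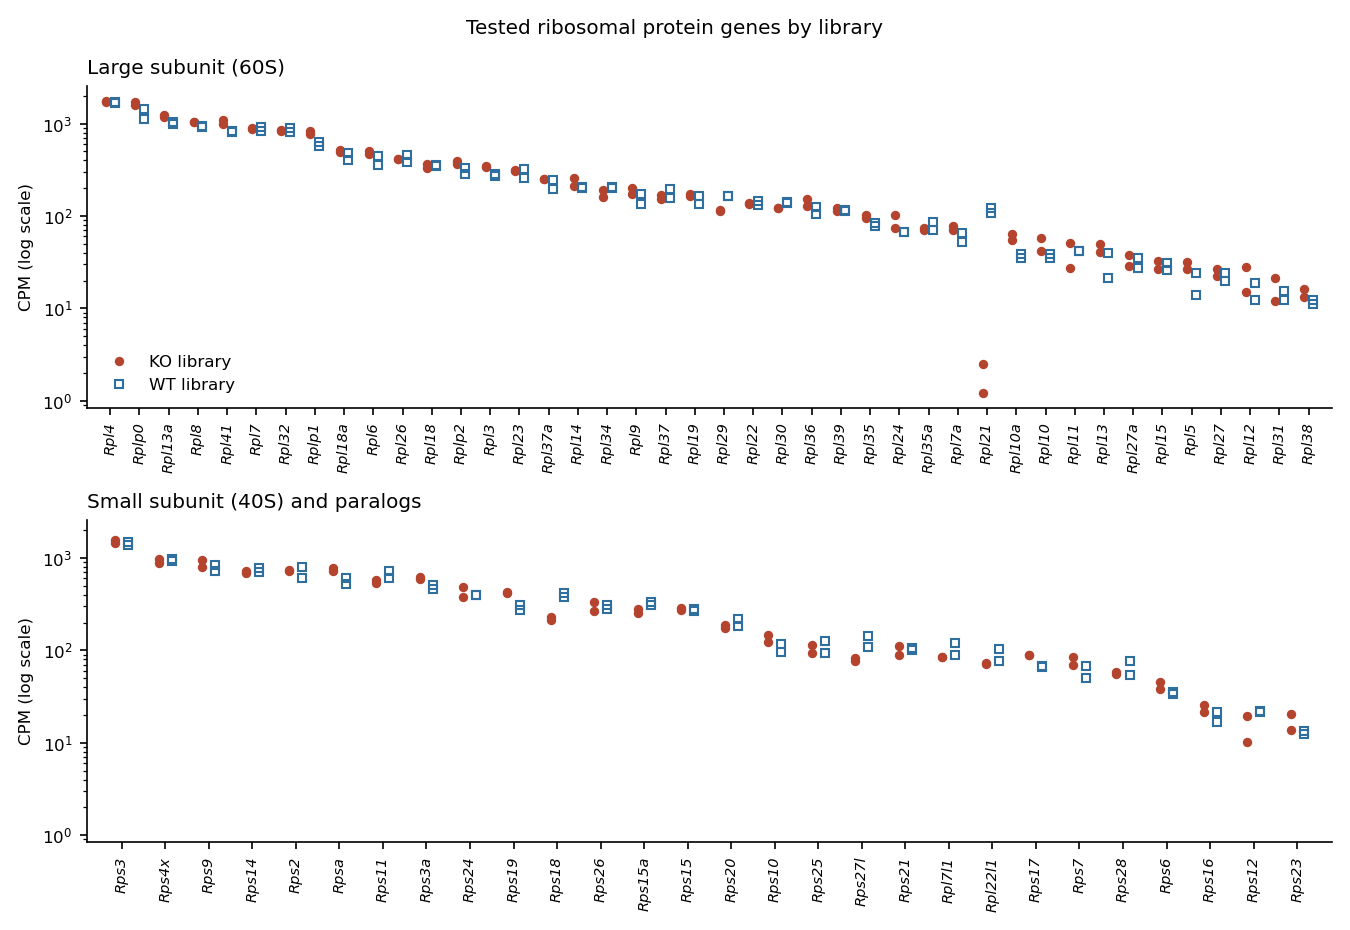
CPM on a log scale of tested ribosomal protein genes in the 2 KO libraries (filled circles) and the 2 WT libraries (open squares), ordered by mean level within the large subunit (top) and the small subunit with paralogs (bottom). Mean levels span from 1727 CPM for Rpl4 to 13.3 CPM for Rpl38, and the KO points of Rpl21 stand far below its WT points.

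Although their products are needed in nearly equal numbers, the genes' counted levels differed widely. Per kilobase of transcript, Rpl41, which encodes the smallest ribosomal protein, was highest in KO and in the mean of all libraries, with 2047 CPM per kb in KO and 1616 in WT. Rpl32, a large subunit protein, had 1638 CPM per kb in KO and 1658 in WT, the highest value in WT. Rplp1, of the stalk of the large subunit, had 1596 CPM per kb in KO and 1209 in WT. At the low end of the tested genes, Rpl5, which binds 5S rRNA, had 14.2 CPM per kb in KO and 9.34 in WT. Only 6.16% of its 50-base windows are in no other gene. Lengths are those of 1 annotated transcript per gene, 509 bases for Rpl41 and 2045 for Rpl5, and the order can depend on that choice.

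The level moved with the share of unique sequence. Members with under 20% of unique windows had a median of 48.2 CPM (19 genes), those with 20% to 40% a median of 119 CPM (22 genes), those with 40% to 60% a median of 190 CPM (15 genes), and those with 60% or more a median of 287 CPM (26 genes). Spearman's rho between mean CPM and the unique share was 0.35 over the 82 genes, which share the same libraries, and 0.22 between mean CPM and transcript length. Rps3 (97.0% unique) and Rpl4 (83.5%) are among the 10 with the most counts, whereas Rps27 (1.35%) and Rpl23a (14.3%) fell below the filter. There were exceptions: Rps29 has 64.2% unique windows and was also below the filter, and Rps2 has 21.0% and averaged 733 ± 7.16 CPM in KO and 705 ± 139 CPM in WT (SD, n = 2 each). Rpl3l (100% unique) and Rps4y2 (82.0%) were also below the filter. Any part of shared sequence in these levels was not tested.

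**Figure D3:**
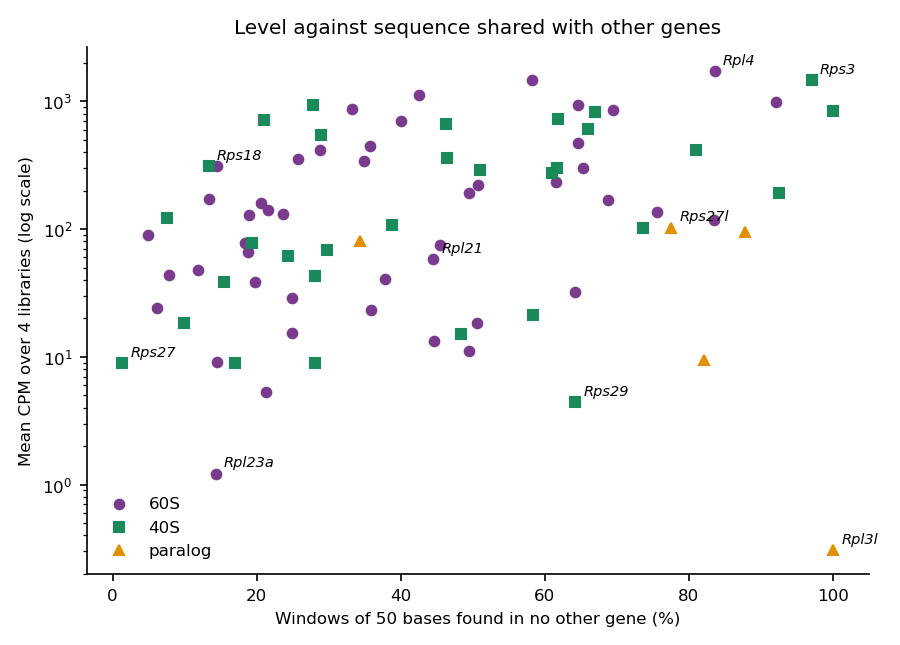
Mean CPM over the 4 libraries (log scale) against the percentage of a gene's 50-base windows that occur in no other annotated gene, for all 82 ribosomal protein genes by group. Genes with more than 80% unique windows include Rpl4 and Rps3 at the top, while Rps27 (1.35%) and Rpl23a (14.3%) are near the bottom. Rpl3l (100%) is the lowest of all 82.

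Of the 42 tested large subunit genes, none rose and 1, Rpl21, fell. By DESeq2 and limma-voom none rose either, and 3 were higher at an unadjusted p under 0.05. Their median log2 fold change was 0.20, with 31 above 0 (73.8%, against 50.3% of all tested genes). Both KO libraries lay above both WT libraries for 21 of them (50%) and below for 4 (9.52%). Those shares were 24.5% and 23.6% of all tested genes, and 36.6% and 28.0% of those above 100 CPM. Rpl4, of the wall of the exit tunnel through which new chains leave, had 1724 and 1770 CPM in the KO libraries and 1688 and 1724 CPM in the WT libraries (log2 fold change 0.03 ± 0.11, SE). Rpl7, near the surface of the large subunit, had 898 and 868 CPM in the KO libraries and 826 and 916 CPM in the WT libraries, which overlap. Rpl8 had 1047 and 1050 CPM in the KO libraries and 949 and 910 CPM in the WT libraries. Its 2 KO libraries are above both WT libraries, yet the log2 fold change was 0.17 ± 0.12 (edgeR adjusted p = 0.499). Rpl13a, known in human monocytes for a role outside the ribosome in silencing inflammatory mRNAs, had 1186 and 1225 CPM in the KO libraries and 999 and 1028 CPM in the WT libraries (0.25 ± 0.12, edgeR adjusted p = 0.274). Rpl32 had a log2 fold change of -0.02 ± 0.13 and its libraries overlapped. Rpl41 had 1088 and 996 CPM in the KO libraries against 817 and 828 CPM in the WT libraries, higher in both KO libraries but short of the threshold (0.34 ± 0.13, edgeR adjusted p = 0.135).

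The stalk proteins Rplp0, Rplp1 and Rplp2, with Rpl12 at their base, recruit the elongation factors to the ribosome. None of the 4 was called by edgeR, DESeq2 or limma-voom, 2 were higher at an unadjusted p under 0.05, and their median log2 fold change was 0.38. Rplp0 had 1702 and 1596 CPM in the KO libraries and 1118 and 1437 CPM in the WT libraries. The KO libraries lay higher, and the WT libraries differed from each other by nearly as much as from KO (0.37 ± 0.13, edgeR adjusted p = 0.127). Without WT library 2, the log2 fold change was 0.55 and passed the threshold (edgeR adjusted p = 0.000790), and over the 14 alternatives it stayed above 0. Rplp1 had 822 and 770 CPM in the KO libraries and 571 and 635 CPM in the WT libraries (0.40 ± 0.13), higher in both KO libraries and short of the threshold. Rplp2 had 389 and 362 CPM in the KO libraries and 284 and 327 CPM in the WT libraries, also higher in both KO libraries (0.29 ± 0.16, edgeR adjusted p = 0.343). Rpl12 overlapped, with 15.1 and 27.8 CPM in the KO libraries and 12.3 and 18.8 CPM in the WT libraries. Rplp0, Rplp1 and Rplp2 together made up 11.6% and 10.8% of ribosomal protein counts in the KO libraries and 8.69% and 9.96% in the WT libraries. The annotated copy Gm8730 nearly equals Rplp0 in counts, with 1100 and 1101 in the KO libraries and 651 and 1078 in the WT libraries, so the level of Rplp0 is uncertain.

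Other large subunit genes near the ends of the range had few counts. Rpl10a had 64.2 and 54.3 CPM in the KO libraries and 35.3 and 38.8 CPM in the WT libraries, the highest log2 fold change of the group at 0.67 ± 0.32 (edgeR adjusted p = 0.278). Rpl5, which with Rpl11 carries 5S rRNA and can bind the p53 regulator Mdm2, had 31.5 and 26.6 CPM in the KO libraries and 13.8 and 24.4 CPM in the WT libraries (0.57 ± 0.47, edgeR adjusted p = 0.588). Its partner Rpl11 overlapped between genotypes at -0.09 ± 0.38. Rpl13 had 50.4 and 41.0 CPM in the KO libraries and 21.5 and 39.9 CPM in the WT libraries (0.54 ± 0.39, edgeR adjusted p = 0.514).

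Rpl21, a 60S protein, was nearly absent from the KO libraries. It had 2 and 1 counts in the KO libraries, against 71 and 109 counts in the WT libraries. The ratio of summed, depth-scaled counts was 0.0160 (exact 95% Poisson interval 0.00327 to 0.0475, counting error only). The fitted log2 fold change was -5.84 ± 0.48 (edgeR adjusted p = 8.18e-07), and the call held in all 14 alternatives. The 22 rows that share sequence with Rpl21 summed to 81 and 81 counts in the KO libraries and 39 and 78 counts in the WT libraries, so they lay above WT in both KO libraries. Rpl21-ps15 had 21 and 23 counts in the KO libraries and 11 and 29 counts in the WT libraries. BC004004 had 41 and 42 counts in the KO libraries and 19 and 31 counts in the WT libraries. With these counted copies added, Rpl21 took 0.00999% and 0.00981% of counts in the KO libraries and 0.0163% and 0.0203% in the WT libraries. The sum was still lower in KO. Of 67 annotated genes that share sequence with Rpl21, only these 22 have a row. All 18751 names in the table have counts in at least 1 library. Whether the genes without a row had no reads or were not counted is therefore not known.

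**Figure D4:**
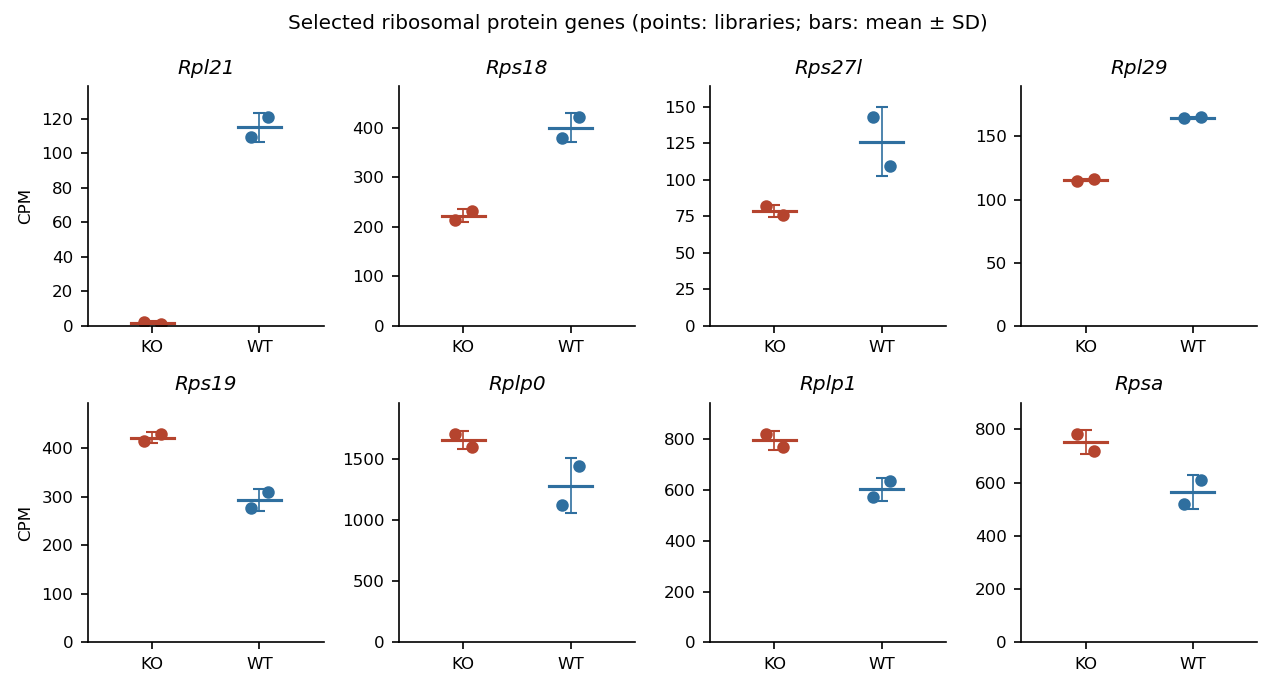
CPM of 8 ribosomal protein genes in each library, KO on the left and WT on the right of each panel, with the mean and SD of 2 libraries. Rpl21 and Rps18 fell in KO, and the other 6 did not pass the threshold. In all 8 the libraries do not overlap between genotypes, as in 48.2% of all 7685 tested genes. Of the tested members, 40.3% lie higher in KO without overlap and 16.7% lower. Rplp1, Rpsa and Rpl29 were chosen after their values were seen, so the 8 do not stand for the group.

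Of the 27 tested small subunit genes, none rose by edgeR or DESeq2, 1 rose by limma-voom (Rps19), and 3 were higher at an unadjusted p under 0.05. One of the 27, Rps18, fell. The median log2 fold change was 0.04, with 16 above 0 (59.3%, against 50.3% of all tested genes). Both KO libraries lay above both WT libraries for 8 of them (29.6%) and below for 5 (18.5%). These are near the shares of all tested genes, 24.5% and 23.6%. Rps3, at the mRNA entry channel, had 1569 and 1450 CPM in the KO libraries and 1369 and 1501 CPM in the WT libraries (0.07 ± 0.12). Rps4x, encoded on the X chromosome, had 879 and 973 CPM in the KO libraries and 971 and 922 CPM in the WT libraries (-0.03 ± 0.13). Both overlapped between genotypes.

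Rps18, a protein of the head of the small subunit, fell in KO. It had 213 and 232 CPM in the KO libraries, against 379 and 421 CPM in the WT libraries. The groups do not overlap, and the log2 fold change was -0.85 ± 0.16 (edgeR adjusted p = 0.00373). It was called in all 14 alternatives, with log2 fold changes between -0.94 and -0.78. The 2 rows that share sequence with Rps18 went the other way, with 32 and 38 counts in the KO libraries and 17 and 19 in the WT libraries. With these 2 rows added, Rps18 still took 0.0242% and 0.0275% of counts in the KO libraries and 0.0391% and 0.0433% in the WT libraries. Of 9 annotated genes that share sequence with Rps18, only these 2 have a row. Whether the others had no reads or were not counted is not known. The head list as a whole showed no shared direction, with 1 of 12 tested genes called and a median of 0.02.

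Rps18 lies on chromosome 17, 18 tested genes away from H2-Ea-ps, an MHC class II pseudogene that had 274 and 313 counts in the KO libraries and 0 and 1 counts in the WT libraries. No other tested ribosomal protein gene of that chromosome passed the threshold. Rps28, 26 tested genes away, had a log2 fold change of -0.23 ± 0.30. Rpl10a (67 away) was at 0.67, Rps10 (74 away) at 0.34, Rpl7l1 (89 away) at -0.28, Rps2 (122 away) at 0.05 and Rpl36 (130 away) at 0.28. Whether a chromosome segment that differs between the mice has a part in the Rps18 value was not tested.

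Rps19, the protein most often mutated in human Diamond-Blackfan anaemia, an inherited failure of red cell production, had 414 and 430 CPM in the KO libraries and 277 and 309 CPM in the WT libraries. Its KO libraries are the higher, and it missed the threshold narrowly (0.52 ± 0.15, edgeR adjusted p = 0.0582). It passed with the 50 CPM filter (adjusted p = 0.0227) and with limma-voom (adjusted p = 0.0379), and not with DESeq2 (adjusted p = 0.185). Of 17 tested ribosomal protein genes linked to that anaemia in people, none was called by edgeR or DESeq2, 1 (Rps19) was by limma-voom, and 1 was higher at an unadjusted p under 0.05. Their median was 0.13. Rpsa, also known as a laminin receptor precursor, had 783 and 719 CPM in the KO libraries and 521 and 610 CPM in the WT libraries (0.41 ± 0.14, edgeR adjusted p = 0.108). It passed without WT library 2 (0.52, edgeR adjusted p = 0.0311). Rps12 had 10.1 and 19.3 CPM in the KO libraries and 21.5 and 22.2 CPM in the WT libraries (-0.56 ± 0.54, edgeR adjusted p = 0.648).

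The balance between the subunits differed slightly. The ratio of 60S to 40S counts was 1.43 and 1.38 in the KO libraries and 1.31 and 1.30 in the WT libraries, higher in both KO libraries (exact permutation p = 0.333, the smallest possible). Without Rpl21 and Rps18 it was 1.46 and 1.41 in the KO libraries and 1.36 and 1.34 in the WT libraries.

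Paralogs replace or accompany a standard ribosomal protein in certain cells. All 3 tested paralogs lay lower in both KO libraries, as did 23.6% of all tested genes. None of the 3 was called by edgeR, DESeq2 or limma-voom. Only Rps27l was lower at an unadjusted p under 0.05, and the median was -0.30. Rps27l, a p53-responsive paralog of Rps27, had 81.9 and 76.1 CPM in the KO libraries and 143 and 110 CPM in the WT libraries (-0.67 ± 0.24, edgeR adjusted p = 0.126). Rpl22l1, a paralog of Rpl22, had 70.5 and 73.6 CPM in the KO libraries and 103 and 76.4 CPM in the WT libraries (-0.30 ± 0.26, edgeR adjusted p = 0.602). Rpl7l1, a paralog of Rpl7, had 85.6 and 85.7 CPM in the KO libraries and 121 and 88.6 CPM in the WT libraries (-0.28 ± 0.25, edgeR adjusted p = 0.611). In both, WT library 1 is the high one and WT library 2 is close to KO.

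Set against the standard genes, Rps27l had 8.13 and 4.50 counts per Rps27 count in the KO libraries and 23.3 and 33.0 in the WT libraries. The ratio is lower in both KO libraries (exact permutation p = 0.333, the smallest possible), but Rps27 had only 8 and 14 counts in the KO libraries and 4 and 3 in the WT libraries. With 1.35% of its windows unique, the level of Rps27 itself is uncertain. Rpl22l1 to Rpl22 was 0.528 and 0.530 in the KO libraries and 0.713 and 0.580 in the WT libraries. Rpl7l1 to Rpl7 was 0.0954 and 0.0987 in the KO libraries and 0.147 and 0.0967 in the WT libraries, which overlap. Rps4y2, which RefSeq names Rps4l, had 7 and 8 counts in the KO libraries and 4 and 13 in the WT libraries. Rpl3l, known as a paralog of striated muscle, had 1 and 0 counts in the KO libraries and 0 and 0 in the WT libraries.

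The other members below the filter were Rpl28, Rpl36a, Rps27a, Rps13, Rps27, Rpl17, Rps29 and Rpl23a. Rps29 had 6 and 6 counts in the KO libraries against 0 and 3 in the WT libraries, a ratio of 3.84 with an exact 95% Poisson interval of 1.04 to 21.2. Rps13 had 9 and 13 counts in the KO libraries and 4 and 3 in the WT libraries. Rps27a, which is made as a fusion with ubiquitin, had 5 and 10 counts in the KO libraries and 7 and 7 in the WT libraries. Rpl23a, a protein of the tunnel exit, had 1 and 0 counts in the KO libraries and 1 and 2 in the WT libraries. Rpl28 had 15 and 7 counts in the KO libraries and 7 and 7 in the WT libraries. Rpl36a had 8 and 8 counts in the KO libraries and 7 and 6 in the WT libraries, and Rpl17 had 2 and 6 in KO and 5 and 4 in WT. A gene with 0 counts in a library may have up to 3 counts, which is 3.26 to 4.45 CPM.

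Copies and parents were also compared directly. Rows sharing sequence with a member summed to at least 40 counts for 54 tested members. Both KO libraries lay above both WT libraries in these sums for 20 members and below for 5. These are 37.0% and 9.26% of the 54, and the shares among all tested genes were 24.5% and 23.6%. In 9 members both copies and parent were higher in KO without overlap, in 5 the copies were higher and the parent lower, and in 2 the copies were lower and the parent higher. The 5 with higher copies and a lower parent were Rpl21, Rps18, Rpl29, Rpl30 and Rpl34. Leaving out 10 rows of other described genes, an alternative chosen after seeing the data, gave 19 members with higher and 5 with lower copies. Rpl29, a heparin-binding 60S protein, had 115 and 116 CPM in the KO libraries and 164 and 165 CPM in the WT libraries (-0.51 ± 0.20, edgeR adjusted p = 0.165). The 10 rows that share sequence with it summed to 83 and 106 counts in the KO libraries and 46 and 53 in the WT libraries. One of them, Uimc1, is a separate protein-coding gene with 44 and 51 counts in the KO libraries and 25 and 32 in the WT libraries. The other 9 summed to 39 and 55 counts in the KO libraries and 21 and 21 in the WT libraries. Rpl29 with these 9 took 0.0156% and 0.0181% of counts in the KO libraries and 0.0190% and 0.0185% in the WT libraries, lower in KO. With Uimc1 added, the shares were 0.0209% and 0.0242% in the KO libraries and 0.0227% and 0.0219% in the WT libraries. The genotypes then overlapped. Of 59 annotated genes that share sequence with Rpl29, only these 10 have a row. Whether the others had no reads or were not counted is not known.

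For some members the annotated copy held more counts than the parent. Gm10288, a copy of Rpl11, had 108 and 100 counts in the KO libraries and 95 and 123 in the WT libraries, against 22 and 42 counts of Rpl11 in KO and 27 and 38 in WT. The 7 rows that share sequence with Rps6, the protein phosphorylated by S6 kinases downstream of mTOR, summed to 181 and 223 counts in the KO libraries and 154 and 224 in the WT libraries. Rps6 itself had 36 and 32 counts in the KO libraries and 22 and 32 in the WT libraries. Its low level is therefore uncertain.

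Genes that serve the ribosome in other ways were counted by function. Neither RNA polymerase I and its factors (16 tested, median log2 fold change -0.14) nor the factors of 60S assembly (32, median -0.05) or 40S assembly (34, median -0.23) held a gene past the threshold by edgeR, DESeq2 or limma-voom. At an unadjusted p under 0.05 there were 0, 2 and 3 genes, all lower in KO. Ubtf, which binds the rDNA, was at 0.00 ± 0.23, Polr2e, a subunit shared by the nuclear RNA polymerases, at 0.01 ± 0.26, Eif6, which keeps the subunits apart, at 0.06 ± 0.20, Ddx24 at -0.13 ± 0.24, Emg1, an rRNA methyltransferase, at 0.05 ± 0.20, and Noc4l at -0.26 ± 0.30. The 14 chaperones and importers of ribosomal proteins had a median of -0.00 and no call, with 1 higher at an unadjusted p under 0.05. Btf3 was at 0.07 ± 0.17 and Naca at -0.04 ± 0.22, both subunits of the complex that meets nascent chains.

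Of the 14 tested snoRNP and nucleolar genes, none was called by edgeR or DESeq2, 2 were lower by limma-voom and the same number at an unadjusted p under 0.05, and the median was -0.05. Npm1, the abundant nucleolar chaperone nucleophosmin, had 485 and 513 CPM in the KO libraries and 722 and 643 CPM in the WT libraries. It is lower in both KO libraries (-0.45 ± 0.14, edgeR adjusted p = 0.0735). Ncl, nucleolin, overlapped at -0.10 ± 0.15.

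Other mRNAs known to carry a TOP tract, chiefly translation factors, with Fau and Gnb2l1 among them, had 1 of 24 tested genes called, lower, and a median of 0.01. By limma-voom 1 was higher and 2 were lower, and at an unadjusted p under 0.05, 3 were higher and 2 lower. The gene called by edgeR was Vim, the filament protein vimentin, with 139 and 127 CPM in the KO libraries and 249 and 280 CPM in the WT libraries (edgeR adjusted p = 0.00283). Eef1a1 had 4652 and 4807 CPM in the KO libraries and 4046 and 4447 CPM in the WT libraries (0.16 ± 0.10). Eef2 had 1543 and 1440 CPM in the KO libraries and 1069 and 1192 CPM in the WT libraries (0.40 ± 0.12, edgeR adjusted p = 0.0664). Both were higher in each KO library, and neither passed the threshold by edgeR. Eef2 passed it by limma-voom (adjusted p = 0.0192).

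The 13 tested genes of mTOR and LARP1 control had a median of 0.00 and no call by edgeR, DESeq2 or limma-voom, and none at an unadjusted p under 0.05. Eif4e, the cap-binding factor, was at 0.00 ± 0.22 and Eif4ebp1, its inhibitor, at 0.24 ± 0.27. Among 11 tested regulators of ribosomal gene transcription and of the p53 response, 1 rose, whereas 2.71% of all tested genes did. Their median was 0.46, with 10 above 0 (90.9%, against 50.3% of all tested genes). Both KO libraries lay above both WT libraries for 6 of them (54.5%, against 24.5% of all tested genes). E2f4, a cell-cycle transcription factor active in red cell precursors, had 287 and 267 CPM in the KO libraries and 141 and 134 CPM in the WT libraries (1.01 ± 0.18, edgeR adjusted p = 0.00217). Myc, the main activator of ribosomal genes, had 204 and 202 CPM in the KO libraries and 98.3 and 188 CPM in the WT libraries (0.47 ± 0.24, edgeR adjusted p = 0.308). Its low value is WT library 1 alone.

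**Figure D5:**
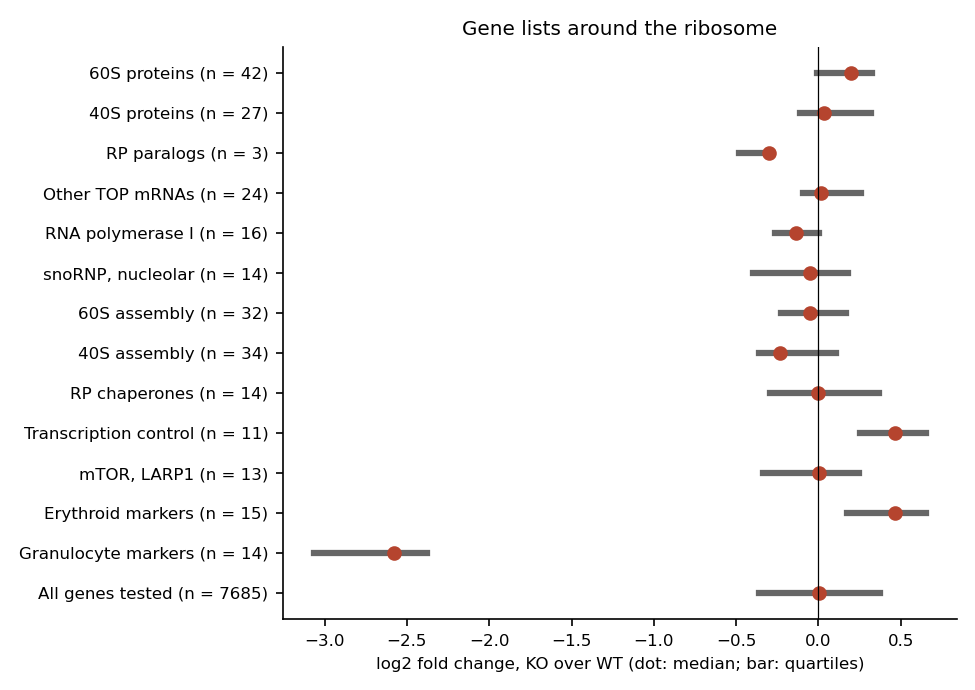
Median (dot) and quartiles (bar) of the log2 fold change, KO over WT, for the tested genes of each list, with the number tested. Among the lists drawn, those of the 60S, 40S, paralog and assembly genes have medians between -0.30 and 0.20. Granulocyte markers lie at -2.58, erythroid markers at 0.47 and the transcription control list at 0.46.

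Of the listed ribosomal protein genes outside the name rule, 6 were tested, and none was called by edgeR, DESeq2 or limma-voom. Their median log2 fold change was -0.11, with 2 above 0, against a median of 0.12 over the tested members. Gnb2l1 (RACK1) was at -0.05 ± 0.13, Rpl36al at -0.16 ± 0.21 and Fau, with few counts, at 0.64 ± 0.64, none past the threshold.

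The make-up of the ribosomal protein counts was finally compared between libraries by a chi-square divided by its degrees of freedom, which is near 1 where 2 libraries differ only by counting. It was 1.41 for the KO pair and 2.18 for the WT pair, and 4.36 to 5.97 for the 4 pairs across genotypes. Rpl21, Rps18 and Rps27l, each lower in both KO libraries, were then left out. Leaving out genes that differ in these same data lowers the values across genotypes in any case. The KO pair then had 1.43, the WT pair 2.19 and the pairs across genotypes 2.33, 3.06, 3.30 and 4.11. The WT pair was close to the lowest of these pairs across genotypes and below the others. Over all genes the values were 2.58 for the KO pair, 2.98 for the WT pair and 8.57 to 9.36 across. Each pair of libraries, also within a genotype, differed by more than counting alone.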

How the data were processed

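The authors deposited a single table of raw, whole-number counts for each gene, without normalization. Bowtie 0.12.2 and the builds mm8 and mm9 were used, per the submitters' processing notes, with no role for either build. None of the counting program, annotation, strand setting and read length is given in the sources used here, so coordinates of counted features are left out. Sequences are from RefSeq (GRCm38.p6) and GENCODE M21 transcripts. Of 21831 rows, 205 names stood on several identical rows, and each name was kept once. Columns named the genotype but not the sample, so library numbers are only names.

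Counts were fitted over all genes in R 4.3.3 with edgeR 4.0.16, with TMM scaling, filterByExpr by genotype (minimum count 10, minimum total 15), the quasi-likelihood test and Benjamini-Hochberg adjustment over 7685 genes (threshold 0.05). CPM of tested genes is TMM-scaled, and ± after a log2 fold change is its SE. DESeq2 1.42.0, limma-voom (limma 3.58.1), other scalings and filters, and leaving out each library were alternatives. On simulated data with 200 changed genes among 7685, the test found 35.5% of changes of 2-fold and 76.3% of those of 4-fold; of its calls, 3.70% were false. Intervals and floors of 3 counts cover counting error only.

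The members and gene lists were chosen with earlier results of these data known. Genes were named if they passed the threshold, were among the 10 highest in mean CPM, the 5 highest or 5 lowest fold changes, paralogs or below the filter, and up to 3 called or the 2 most abundant of each list. Rplp1, Rplp2, Rpsa, Rpl29, Rpl30, Rpl34, Rps2, Rpl11, Rps6, Rpl15, Eef2, Myc and other genes outside this rule were chosen after their values were seen. A copy is a counted gene that shares at least 20 windows of 50 bases with a member. Among these, 10 rows belong to other described genes. No set test was run. Some genes that the rule names are not reported here.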

Additional observations from a re-analysis of the deposited data

How the results depend on the processing

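Rpl21 and Rps18 were called lower in all 14 alternatives. The number of members higher in KO, 0 in the main result, was 1 (Rps19) with the 50 CPM filter, with limma-voom and with an adjusted p of 0.1, and 0 to 2 when a library was left out (2, Rplp0 and Rpsa, without WT library 2). The number lower was 1 without Rpl21 and 0 among the 28 tested members with at least 50% unique windows, both alternatives chosen after seeing the data. The median log2 fold change of members, 0.12, was 0.022 with the 50 CPM filter, 0.036 among members with at least 50% unique windows, and 0.078 to 0.17 when a library was left out. The difference in share of counts, 0.171 percentage points, was 0.0873 to 0.255 when a library was left out. In those fits the remaining library of that genotype is taken to vary as the pair of the other genotype does. No paired analysis was possible because the titles' numbers differ between genotypes and the columns carry none that tie them to samples. With under 1000000 counts per library, 10 members could not be tested and a 2-fold change was often missed in the simulation. Its changed genes were drawn from all tested genes, so the share found is not that of the members alone. Shared sequence limits what a count says of 1 gene.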

Other observations

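Rows named as ribosomal protein pseudogenes numbered 103, of which 29 could be tested. None was called by edgeR, DESeq2 or limma-voom, and none had an unadjusted p under 0.05. Their median log2 fold change, KO over WT, was 0.13, close to the 0.12 of the ribosomal protein genes. They took 0.145% and 0.161% of counts in the KO libraries and 0.142% and 0.149% in the WT libraries, which overlap.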
